A study of Aspergillus nidulans with 8 samples.

Results

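The difference between a CdCl2 array and an untreated array, both labelled as the atfA deletion strain of Aspergillus nidulans, is described here across all genes. These are 2 of the 8 arrays of the series, 1 array each, on the same slide. Both arrays carried a bright atfA transcript, against their strain label. The series compared a reference strain and an atfA deletion strain, untreated or under amphotericin B, CdCl2 or Congo Red, with 1 single-colour (Cy3) Agilent array for each combination. Each array held a pool of total RNA from 3 submerged mycelial cultures. By its labels, the CdCl2 culture received 0.2 mM CdCl2 at 16 h and was harvested at 16.5 h, that is after 0.5 h of exposure; the untreated culture was of the same age. The genotype given for the deletion label is pyrG89, AfupyrG+, pyroA4, with atfA replaced by pyroA, and veA+. The reference label gives pyrG89, AfupyrG+, pyroA+ and veA+, so the pyrG89 allele and the Aspergillus fumigatus pyrG gene are common to all groups. With 1 array a group there is no test, no p-value and no estimate of the spread between cultures. All results are sizes of differences.

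Cadmium is a toxic metal that binds thiols, so that glutathione, cysteine and protein thiols are its main cellular targets. In fungi it is known to engage sulfur assimilation, thiol antioxidants, chaperones and the unfolded protein response of the endoplasmic reticulum. AtfA is a bZIP transcription factor that works downstream of the SakA stress kinase in stress tolerance of A. nidulans, chiefly in conidia.

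Levels are log2 processed signals relative to the 75th percentile of the same array, as means over the 4 spots of a probe, and a difference is the level on the array labelled CdCl2 minus that on the array labelled untreated. The error given with a difference is the standard error over the spots of both arrays, which covers the slide and the scanner and not the cultures. A probe was called measured where the majority of its spots were well above background on both arrays.

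The labels of this pair are in doubt in 2 ways, which come before the results. The atfA probe had a processed signal of 7604 on the untreated array and 9708 on the CdCl2 array, at levels of 2.39 and 2.37. On the 4 arrays labelled reference its signal was 2.3 to 3.09 and not well above background. The authors' value table has it the other way, with atfA at 13.66 to 14.60 in the reference columns and 6.19 to 6.26 in the deletion columns (log2). pyroA stood at 2.05 and 1.86 on the pair, and at 3.21 and 3.67 on the untreated and CdCl2 arrays labelled reference. The pair is therefore called by its labels throughout, and its RNA is described as RNA with atfA transcript.

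The second doubt concerns the treatment labels. In the authors' value table of the series, the column that correlated best with the untreated array of this pair was the reference CdCl2 column (Pearson's r = 0.974 across 10550 probes). The column that correlated best with the CdCl2 array was the reference untreated column (r = 0.971). The difference between the scanner arrays correlated across the 8115 measured probes at r = -0.943 with the reference CdCl2 column minus the reference untreated column. The scanner files and the value table thus carry opposite treatment labels for what appears to be the same pair of arrays, and these 2 arrays may be exchanged. If they are, every sign below turns and every "higher" becomes "lower". The CdCl2 and untreated arrays labelled reference matched the deletion columns of the same treatment, and their difference correlated at r = 0.972 with that of these columns. Which source names the treatments of this pair rightly was not settled by the files.

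**Figure D1:**
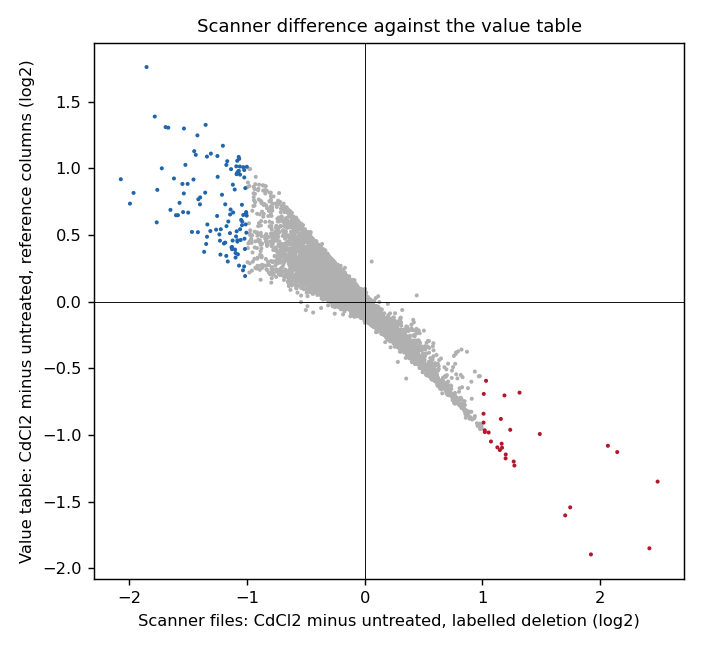
The difference between the arrays labelled CdCl2 and untreated in the scanner files (x axis, log2) against the difference between the reference CdCl2 and reference untreated columns of the value table (y axis, log2), 1 point for each of 8115 measured probes, red and blue where the scanner difference is at least 2-fold higher or lower. The points run from the upper left to the lower right (r = -0.943), so the 2 sources give opposite directions.

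The 2 arrays were close to each other. Their levels correlated at r = 0.990 across measured probes, against 0.977 for the pair labelled reference, and the SD of the difference was 0.37 in place of 0.55. Of 8115 measured probes, 28 lay at least 2-fold higher on the array labelled CdCl2 (0.345%) and 111 lay 2-fold or more lower (1.37%). In other words, 20.1% of these probes were higher; the split was 57 higher and 64 lower when arrays were scaled to their median, 36 and 72 after quantile normalization, and 16 and 24 in the matched columns of the value table. With the arrays exchanged, 111 would be higher and 28 lower. A 4-fold difference was passed by 4 probes on the higher side and 1 on the lower side. Differences of at least 0.5 in size were found for 416 probes on the higher side (5.13%) and 905 on the lower side (11.2%). The 2-fold limit cuts a continuous distribution: AN2894 at 1.01 lay just inside it and AN6902 at 0.99 just outside, and on the lower side AN8854 at -1.002 lay inside and AN8051 at -0.999 outside.

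Brightness differed between the sides. With the measured probes in 5 bins of equal size by mean level, the dimmest bin held 59 probes at least 2-fold lower and 8 higher, and the brightest bin 3 lower and 5 higher. The median difference ran from -0.17 in the dimmest bin to 0.01 in the brightest. The signal at the 75th percentile was 1451 on the untreated and 1881 on the CdCl2 array, and 8139 and 8367 probes were above background. The part of this brightness in the counts was not tested.

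**Figure D2:**
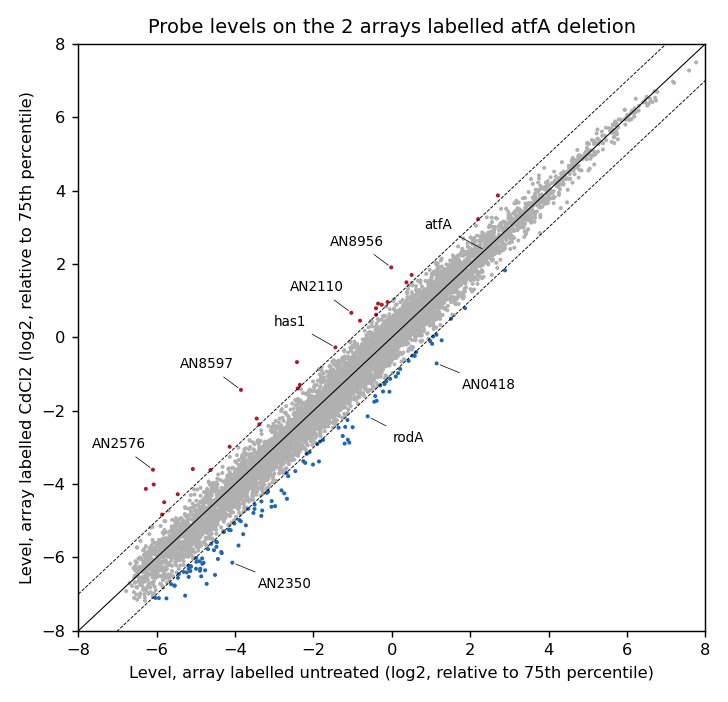
Level of each measured probe on the array labelled untreated (x axis) and on the array labelled CdCl2 (y axis), both log2 relative to the 75th percentile of the array; dashed lines mark a 2-fold difference, red and blue the 28 higher and 111 lower probes. Most of the lower probes lie at the dim end, and atfA lies on the diagonal at 2.39 and 2.37.

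The higher side was led by genes without a symbol in the reference table, whose functions are not annotated in the sources used here. AN2576 stood at -6.10 on the untreated and -3.61 on the CdCl2 array, a difference of 2.49 ± 0.14 (SE over spots). AN8597 stood at -3.85 and -1.43, a difference of 2.42 ± 0.05. AN11090 went from -6.28 to -4.13, and AN9372 from -6.08 to -4.01, differences of 2.15 ± 0.09 and 2.07 ± 0.15. All 4 were dim on the untreated array, and the spot error leaves out the choice of background. With normexp AN2576 was at 0.99, AN11090 at 0.72 and AN9372 at 0.67, under 2-fold, and in the value table they were at 1.35, 1.13 and 1.08; AN8597 was at 1.81 and 1.85. Brighter genes followed, AN8956 at -0.01 and 1.91 (1.92 ± 0.07) and AN2110 at -1.03 and 0.67 (1.70 ± 0.04). AN8341 stood at -2.42 and -0.67 (1.75 ± 0.07), and AN8340, its neighbour in the order of the reference table, was higher by 1.01 ± 0.11. The other 5 of the 12 highest probes were AN5330, AN3558, AN4751, AN2451 and AN2815, with differences from 1.49 down to 1.24. AN5330, AN3558 and AN2815 were under 2-fold both with normexp and in the value table.

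The lower side held no difference as large as AN2576, and most of its leading probes were dim. AN2350 stood at -4.07 on the untreated and -6.14 on the CdCl2 array (-2.07 ± 0.04), AN0209 at -4.73 and -6.72 (-1.995 ± 0.15), and AN1837 at -4.51 and -6.48 (-1.96 ± 0.12). AN0418 was the bright exception, at 1.14 and -0.71 (-1.85 ± 0.07). AN0473, AN4661 and AN4659 lay between -1.20 and -1.08 on the untreated array and had differences of -1.78, -1.69 and -1.67. The other 5 of the 12 lowest were AN2753, AN0903, AN5564, AN10573 and AN6659, from -1.77 to -1.62. In the value table AN2350, AN0209 and AN1837 were at -0.92, -0.74 and -0.82, and AN2753, AN0903, AN10573 and AN6659 were under 2-fold as well, while AN0418 was at -1.76.

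**Figure D3:**
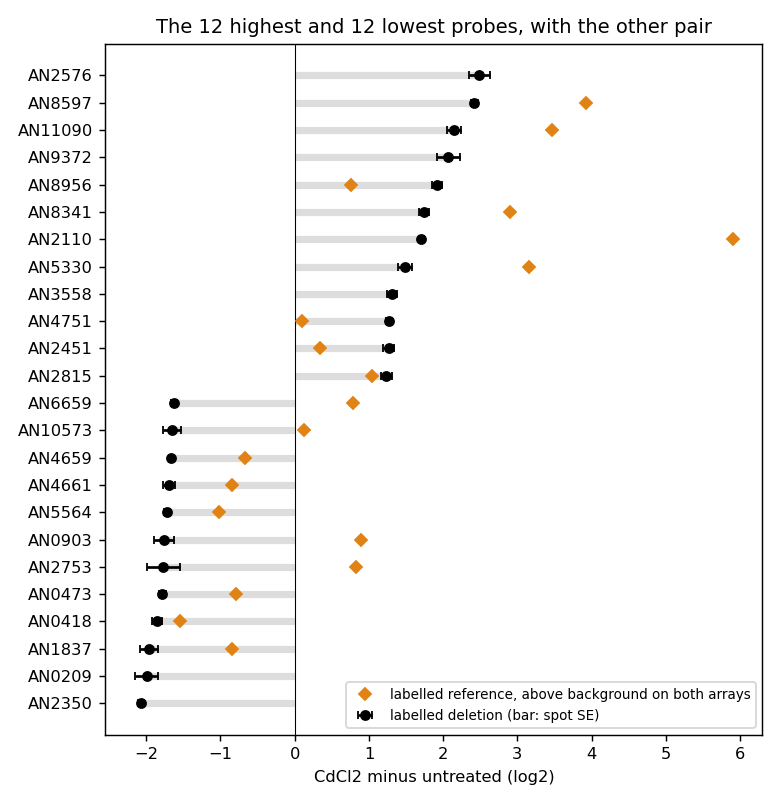
CdCl2 minus untreated (x axis, log2) of the 12 highest and 12 lowest measured probes of the pair labelled deletion (black, bars are the SE over spots), with the same difference on the arrays labelled reference (orange; left out where the probe was not above background on both of those arrays). The black points run from -2.07 to 2.49, and AN2110 reaches 5.90 on the reference label.

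Another 252 probes were above background on the CdCl2 array alone and 24 on the untreated array alone. For such a probe the fold is a lower bound under this scaling and background, set against the higher of its own dim signal and the lowest signal of any probe above background on that array. By this bound AN2808 was at least 3.32-fold, AN6936 at least 3.12-fold, AN10626 at least 2.17-fold, AN3563 at least 1.84-fold and AN11096 at least 1.75-fold higher on the array labelled CdCl2. On the other side AN9128 was at least 4.64-fold, AN7349 at least 4.53-fold, AN6421 at least 3.81-fold, AN0940 at least 3.21-fold and AN8611 at least 3.03-fold lower. These bounds did not hold on other scales. In the matched columns of the value table, the 5 genes of the untreated side differed by 1.35-fold to 1.83-fold, all under their bounds, and the 5 of the CdCl2 side by 1.26-fold to 1.91-fold, 4 of them under. With normexp all 10 were under their bounds, and AN11096 turned direction, at 0.938-fold. The CdCl2 array was the brighter of the 2, and the part of that in the unequal counts was not tested.

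Genes with a symbol were a minority of all probes, 737 of the 8115 measured. Of the 28 higher probes 1 had a symbol, has1, and of the 111 lower probes 12 did. The largest differences among genes with a symbol are given next by function, with lists of genes drawn up from the symbols of the reference table. A list is described by its count and median beside the values of all measured probes, whose median difference was -0.06, with 3457 above 0 and 4658 below. The lists of ribosome biogenesis, transfer RNA modification, ribosomal protein, proteasome and mitochondrial import genes were drawn up after the values were seen. So were the peroxisome, autophagy, second chaperone, zinc transporter, sulfur, ergosterol, chitin synthase and velvet lists.

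Genes of ribosome biogenesis, the nucleolar work of making and folding ribosomal RNA, lay higher on the array labelled CdCl2. All 28 listed genes were measured and all 28 had a difference above 0, with a median of 0.58 and a range of 0.07 to 1.17. At least 0.5 was reached by 18 of the 28, where 5.13% of all measured probes did so. This list was drawn up after the values were seen. The RNA helicase gene has1 (AN1949) stood at -1.44 on the untreated and -0.27 on the CdCl2 array, a difference of 1.17 ± 0.08. nop9 (AN10618), named after a yeast factor of the small subunit, went from -1.79 to -0.81, nop7 (AN3827), of the large subunit, from 0.52 to 1.49, and the helicase gene dbp4 (AN0589) from -1.06 to -0.10. loc1, of a large subunit assembly factor, stood at 0.38 and 1.24. Genes of the small nucleolar ribonucleoproteins that modify ribosomal RNA followed, with sik1 at 0.85, cbf5, the pseudouridine synthase, at 0.72 and nop58 at 0.71. The lowest values of the list were utp10 at 0.07, dbp7 at 0.12 and nop12 at 0.21.

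Genes of transfer RNA modification, a list also drawn up after the values were seen, had a median of 0.47 and 7 of 8 above 0. trm6 (AN8066) and trm61 (AN8799), whose yeast namesakes form a tRNA methyltransferase, were higher by 0.93 ± 0.02 and 0.51 ± 0.04, and dus3 (AN0818), a dihydrouridine synthase, by 0.72 ± 0.08. rmtA (AN10526), the gene of a protein arginine methyltransferase, stood at -0.14 and 0.84. The 7 listed ribosomal protein genes did not share this shift: their median was 0.04 and they lay between -0.26 and 0.09. Their levels were high, with rps23 at 5.85 and 5.93.

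Among protein folding genes of the endoplasmic reticulum, bipA (AN2062), the Hsp70 of that compartment, stood at 1.12 and 2.03, a difference of 0.91 ± 0.06. pdiA (AN7436), protein disulfide isomerase, stood at 3.89 and 4.62 (0.73 ± 0.03), and clxA (AN3592), calnexin, at 1.52 and 1.84. The sensor gene ireA and the transcription factor gene hacA of the unfolded protein response had differences of -0.19 and -0.15. The median of these 5 genes was 0.32, and none of them reached 2-fold.

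Cytosolic and mitochondrial chaperones showed no common direction. Their 5 genes had a median of 0.02, which was -0.04 after quantile normalization and -0.02 in the value table. hsp70 (AN5129) stood at 3.84 and 3.56, hsp90 (AN8269) at 2.48 and 2.63, hsp60 (AN6089), the mitochondrial chaperonin, at 2.89 and 3.15, and fes1 (AN6543), whose product swaps the nucleotide bound to Hsp70, at 0.91 and 0.41. The cochaperone gene sti1 (AN9124) stood at -0.26 and -0.97 (-0.71 ± 0.09), in a second chaperone list of 4 genes with a median of -0.20 and 1 gene above 0. The 9 measured mitochondrial import genes had a median of 0.23 and 8 of 9 above 0, led by tim44 (AN1281) at 0.77 ± 0.03 and grpE (AN6248) at 0.51 ± 0.03. The 15 proteasome genes lay within -0.29 and 0.11, with a median of -0.10 that became 0.03 with median scaling.

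The listed antioxidant genes, of a class known to respond to cadmium, lay near the median of all probes. Of thiol enzymes the list held only glr1 and trr1, and it held no gene of glutathione synthesis. Of 7 measured genes, 2 were above 0 and 5 below, with a median of -0.09 that became 0.04 with median scaling. The catalase gene cat1 (AN9339) was the farthest, at 2.10 and 1.30 (-0.80 ± 0.02). glr1 (AN0932), glutathione reductase, stood at 3.57 and 3.26, trr1 (AN3581), thioredoxin reductase, at 1.29 and 1.04, and yap1, the gene of an oxidative stress bZIP factor, had a difference of -0.09. sod1 and sod2 were at -0.08 and 0.17.

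In sulfur assimilation a pair of neighbouring genes differed in direction. sC (AN4769), ATP sulfurylase, the first step of sulfate activation, stood at 3.49 on the untreated and 3.96 on the CdCl2 array (0.47 ± 0.05). met16 (AN4770), the next gene in the order of the reference table and named after the yeast PAPS reductase, stood at 1.14 and 0.07 (-1.07 ± 0.04). met2 and metG were at -0.26 and -0.09, and the median of the 4 sulfur genes was -0.17. Of the zinc transporter genes, zrfC (AN1833) was at -0.45, zrfA (AN8337) at -0.12, which was 0.03 in the value table, and zrfB (AN3799) at 0.01, around a median of -0.12 that became 0.01 with median scaling.

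Iron acquisition genes lay lower on the array labelled CdCl2. All 8 measured genes were below 0, with a median of -0.41. sidI (AN0609) and sidH (AN6235), of the synthesis of the extracellular siderophore, stood at -4.48 and -5.71 (-1.24 ± 0.10) and at -2.95 and -3.91 (-0.96 ± 0.06). mirB (AN8540), a siderophore transporter gene, was the brightest of these, at 2.05 and 1.25 (-0.80 ± 0.05). sidC and sidD, the peptide synthetase genes of the siderophores, were at -0.34 and -0.33. The regulators hapX (AN8251), a bZIP factor of iron starvation, and sreA, a GATA factor that represses uptake, were at -0.46 and -0.19. sidI alone reached 2-fold, and in the value table it was at -0.50, sidH at -0.50 and mirB at -0.79.

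Nitrogen genes included one of the larger differences with a symbol. areA (AN8667), the GATA factor of nitrogen metabolite repression, stood at -4.34 and -5.88 (-1.54 ± 0.06), and was -0.67 in the value table. Among genes of nitrate use, the transporter gene crnA (AN1008) stood at 2.77 and 2.12 (-0.66 ± 0.02), while niaD (AN1006) and niiA, nitrate and nitrite reductase, were at -0.22 and -0.11. In the proline cluster the transporter gene prnB (AN1732) was higher, at -1.12 and -0.41 (0.70 ± 0.04). prnC (AN1733), of the second step of proline oxidation, was above background on the untreated array alone and at least 3.01-fold lower on the other, with a difference of -0.59 in the value table. The 7 measured genes of nitrate and proline use had a median of -0.16, with 6 below 0.

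Some developmental genes lay lower on the array labelled CdCl2. In RNA of a whole culture, fewer cells of a type and less RNA per cell cannot be told apart. The cultures are labelled as mycelium, and the central regulators of conidiation were dim: brlA stood at -5.01 and -4.80, abaA at -6.06 and -6.07 and wetA at -5.84 and -5.94, and the spore wall hydrophobin gene dewA was not above background on both arrays. By contrast gpdA, a housekeeping gene of glycolysis, stood at 6.46 and 6.43. rodA (AN8803), the rodlet hydrophobin, stood at -0.62 on the untreated and -2.15 on the CdCl2 array (-1.54 ± 0.04). The conidiophore pigment genes ivoA (AN10576) and ivoB (AN0231) were at -1.02 ± 0.09 and -0.74 ± 0.06, and sclB (AN0585), a developmental regulator, at -1.40 ± 0.13. In the value table rodA was at -1.30, while ivoA, ivoB and sclB were at -0.26, -0.50 and -0.78. Of 14 measured conidiation genes 11 were below 0, with a median of -0.18. By the value table's values, 7 of the 14 were above 0, with a median of -0.07, so the list had no steady direction. Of 8 measured genes of the velvet complex and sexual development 7 were below 0, with a median of -0.53: esdC (AN9121), of early sexual development, at -1.07, laeA (AN0807) at -0.68, nsdD (AN3152) at -0.61, steA (AN2290) at -0.57, veA at -0.49 and velB at -0.48. In the value table the median of these 8 was -0.34, with 2 above 0. At least 0.5 on the lower side was reached by 4 of these 8, where 11.2% of all measured probes did so. In the value table esdC was at -0.98, while laeA, nsdD and steA fell short of 0.5, at -0.39, -0.23 and -0.45. This list too was drawn up after the values were seen.

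The SakA pathway itself, from the sensor kinases to AtfA, showed small differences. Of its 9 measured genes 8 were below 0, with a median of -0.19 and a range of -0.45 to 0.03. sakA (AN1017), the kinase gene, stood at 0.74 and 0.54, and atfA had a difference of -0.02 ± 0.03. The histidine kinase gene tcsC (AN4479) was lowest at -0.45. The medians of the peroxisome and autophagy lists also lay below that of all probes. pex7 (AN0880), a receptor for peroxisomal import, stood at -4.91 and -6.10 (-1.20 ± 0.05, and -0.44 in the value table). pex6 (AN2925), of a peroxisomal ATPase, was at -0.69. Of the 12 peroxisome genes 8 were below 0, with a median of -0.25, where 57.4% of all measured probes were below 0. By the value table's values, 5 of the 12 were above 0, with a median of -0.10. All 5 autophagy genes were below 0, with a median of -0.33, atg11 (AN2887) lying at -0.83 and atg2 (AN5491) at -0.65. The value table had the median of these 5 at -0.15. Their median level was -3.13 on the untreated array. The bin of all measured probes with mean levels from -3.74 to -1.87 had a median difference of -0.13. The remaining lower genes with a symbol past 2-fold were car2 (AN1810) at -1.59, ppm1 (AN9438) at -1.55, the septin gene aspE (AN10595) at -1.10 and pacC, the pH regulator gene, at -1.05. All 4 were dim, and in the value table they were under 2-fold, at -0.65, -0.88, -0.37 and -0.46.

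**Figure D4:**
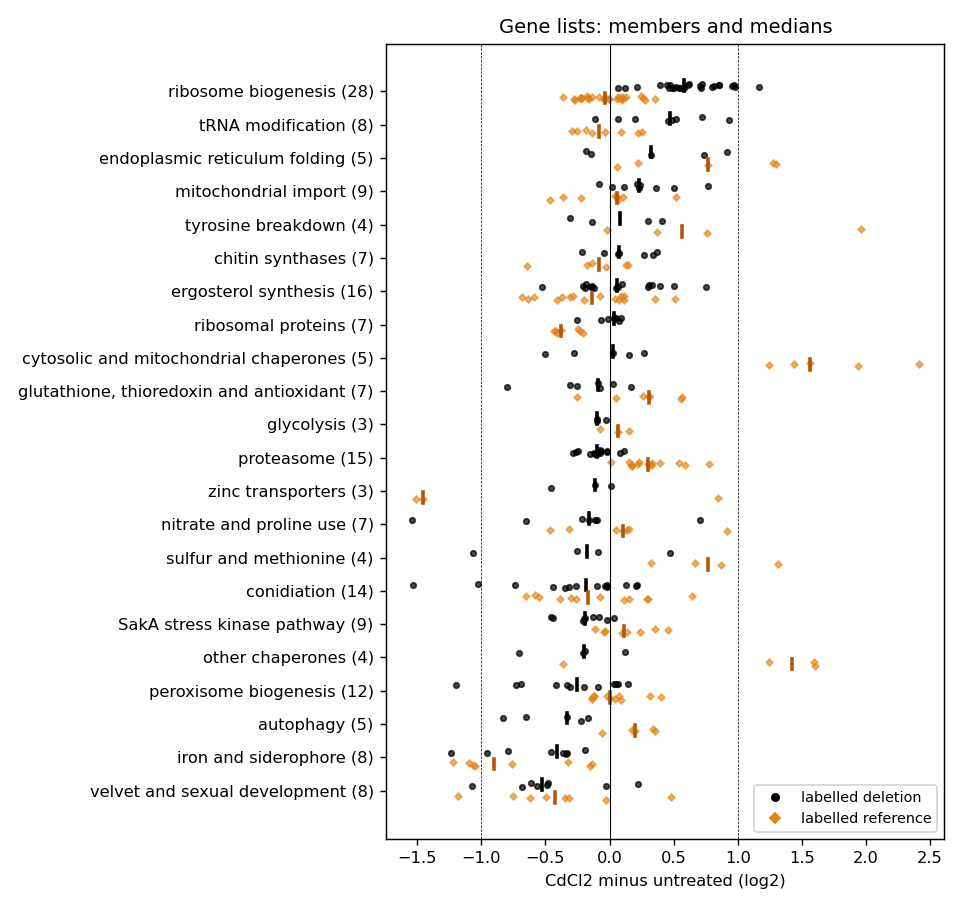
CdCl2 minus untreated (x axis, log2) for the measured members of each list with at least 3 of them (number in brackets), black for the arrays labelled deletion and orange for those labelled reference; vertical strokes are medians and dashed lines a 2-fold difference. Ribosome biogenesis lies at a median of 0.58 in black and -0.04 in orange, and the cytosolic and mitochondrial chaperones at 0.02 and 1.57.

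The pair of arrays labelled reference, on which atfA was not above background, offers the same contrast on the other slide and shares no array with this pair. In it 307 of 7772 measured probes passed 2-fold on the higher side (3.95%) and 164 on the lower side (2.11%). Across the 7685 probes measured on all 4 arrays, the differences of the pairs correlated weakly, at r = 0.18 and Spearman's rho = 0.14; the genes are not independent replicates. Of the 23 higher probes of this pair measured on all 4 arrays, 10 were at least 2-fold higher there too and none was 2-fold lower. These 10 are 43.5% of the 23 and 3.48% of the 287 higher probes of the other pair. Of 93 lower probes, 18 were at least 2-fold lower there and 4 at least 2-fold higher, and the 18 are 19.4% of the 93 and 11.4% of 158. With the treatment labels of this pair turned, the 10 and the 18 would be of opposite sign in the pairs, and the 4 of the same sign.

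Of the genes that led this pair, several had larger differences on the reference label. AN2110 stood at 5.90 there against 1.70 here, AN8597 at 3.92 against 2.42, AN11090 at 3.46 against 2.15, AN8341 at 2.90 against 1.75 and AN8340 at 4.15 against 1.01. AN2576 and AN9372 were not above background on the untreated array there. By the kind of bound used above, they were at least 34.4-fold and at least 8.46-fold higher on the CdCl2 array. Most such bounds of this pair did not hold on other scales, and no such check is given for these. AN8956, AN4751, AN2451 and AN2815 had smaller differences there, at 0.75, 0.10, 0.34 and 1.04 against 1.92, 1.27, 1.27 and 1.24 here. AN5330 was larger, at 3.16 against 1.49, and AN3558 was not measured there. Of the 12 lowest, AN2753, AN0903, AN6659 and AN10573 were above 0 there, at 0.83, 0.89, 0.79 and 0.12. AN1837, AN0418, AN0473, AN5564, AN4661 and AN4659 were below 0 there, from -1.54 to -0.66. AN2350 and AN0209 were not above background on the CdCl2 array there. Of the 20 highest probes of the reference pair, 11 were above 0 here, 5 were at least 2-fold higher and none was 2-fold lower, with values from -0.91 to 2.42. Of its 20 lowest probes, 5 were above 0 here and 4 were at least 2-fold lower. For comparison, 42.9% of the 7685 probes measured in both pairs were above 0 here. The 2-fold limit was passed here by 23 of these 7685 on the higher side and by 93 on the lower side.

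Several of the lists had these values on the reference label. Of all 7772 probes measured in that pair, 3621 were above 0, with a median of -0.03. Ribosome biogenesis had a median of -0.04 on the reference label, with 11 of 28 above 0, and has1 stood at 0.11 there. On the untreated and CdCl2 arrays labelled reference, has1 had levels of -0.42 and -0.31 and nop9 of -0.98 and -0.70. Those of nop7 were 1.64 and 1.77, and those of dbp4 -0.11 and 0.15. These levels lie nearer the array labelled CdCl2 of this pair than its array labelled untreated. The pairs lie on different slides, and why the levels differ was not tested. The endoplasmic reticulum genes bipA and pdiA stood at 1.30 and 0.77 there against 0.91 and 0.73 here, and clxA at 1.27 against 0.32. The median of that list was 0.77 there, with all 5 genes above 0, against 0.32 here, with 3 of 5. All 5 cytosolic and mitochondrial chaperone genes were at least 2-fold higher on the reference label, with fes1 at 2.42, hsp90 at 1.94 and sti1, of a second list, at 1.60. The iron list had a median of -0.90 there and all 8 genes below 0. rodA stood at 0.11 there, met16 at 0.32 and sC at 1.32. The 4 sulfur genes had a median of 0.77 there, all above 0, against -0.17 here. The zinc transporter median was -1.46 there, with 2 of 3 genes at least 2-fold lower, against -0.12 here. All 15 proteasome genes were above 0 there, against 2 of 15 here. With 1 array each and a slide of its own for each pair, whether these responses differ was not tested, and strain, slide and culture cannot be told apart.

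**Figure D5:**
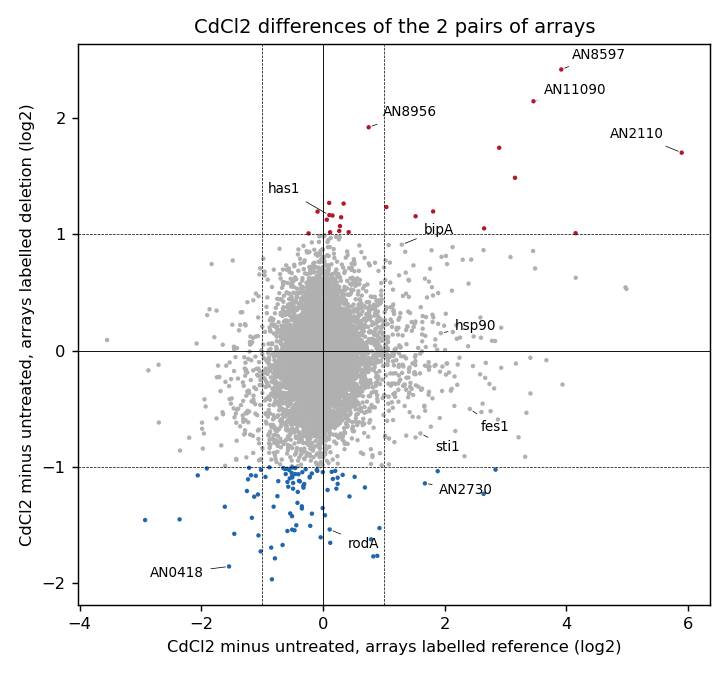
CdCl2 minus untreated on the arrays labelled reference (x axis, log2) and on those labelled deletion (y axis, log2) for the 7685 probes measured on all 4 arrays; dashed lines mark 2-fold and the colours the probes at least 2-fold higher (red) or lower (blue) on the deletion label. AN2110, AN8597 and AN11090 lie at the upper right, has1 at the top near 0 on the x axis, and hsp90, fes1 and sti1 to the right near or below 0 on the y axis.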

How the data were processed

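The submitters' processing notes name Agilent Feature Extraction 12.0.3.1. Per the file headers, the scanner files hold a background-subtracted processed intensity for each spot on a linear scale, with median and background intensities. A value table of log2 intensities, deposited by the authors, had column medians of 9.24 to 9.26. The sources used here do not say how it was normalized, so its centring is unknown; its columns were paired with arrays by correlation across probes. No genome build is named, so no coordinates are given.

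From these files, control spots and spots with a feature outlier flag (1.46% to 1.9% of an array) were left out, log2 processed signals were averaged over the spots of a probe, and the log2 of the array's 75th percentile was subtracted. The median SD between spots was 0.082 to 0.089 on this pair. The slide was read from the barcode in the scanner files. All 8 arrays have 10550 probes; 9697 matched the RefSeq table of assembly ASM1142v1 by locus tag and 776 had a symbol there, some of them symbols of orthologues. Calculations used Python 3.11.15, pandas 2.3.3 and limma 3.58.1 (normexp with offset 50 on the median signal, since no mean signal is held, and quantile normalization). The summarising step was tested on simulated spots with the same noise at all levels and all marked above background. That test therefore does not cover the background treatment or the noise of dim probes. No test was run, because each group has 1 array; the number of arrays limits the precision.

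Named genes were the 12 highest and 12 lowest measured differences, the 5 largest bounds each way, the 8 highest and 8 lowest with a symbol, and up to 4 members of each list with the largest differences; other members are named to show the range of their list, and 1 gene that the rule names is not reported here. Of 119 entries of the first lists, 118 were on the array and 69 had a symbol in the table; the rest were not used. Another 130 entries in further lists were added by symbol after the values were seen. The members and lists were chosen with earlier results of these data known.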

Additional observations from a re-analysis of the deposited data

Results flagged for a closer look

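Among the 7685 probes measured on all 4 CdCl2 and untreated arrays, 4 were at least 2-fold in opposite directions under the 2 strain labels. These are 4 of the 93 probes at least 2-fold lower here. Of all 7685, 287 were at least 2-fold higher on the reference label, a share close to that. The 4 probes were picked after their values were seen, and the difference between the labels was not tested. AN2730 stood at -2.64 untreated and -3.78 under CdCl2 on the arrays labelled deletion, a difference of -1.14, and at 1.68 on the reference label. AN3197 was at -1.23 here and 2.64 there, AN3903 at -1.03 and 1.89, and AN8994 at -1.02 and 2.84. In the matched columns of the value table none of the 4 passed 2-fold in this pair, with AN2730 at -0.69, AN3197 at -0.46, AN3903 at -0.24 and AN8994 at -0.47. All 4 were lower here and higher there; with the treatment labels of this pair exchanged, all 4 would be higher in both. None of the groups has the 4 arrays needed to look for one that stands apart.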

How the results depend on the processing

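The counts of 28 higher and 111 lower probes moved with the scaling and the background treatment. They were 57 and 64 with median scaling, 36 and 72 after quantile normalization, 14 and 43 with normexp, 16 and 24 in the matched columns of the value table, 20 and 65 over the 6980 probes above background on all 8 arrays, 57 and 258 with no background filter, and 111 and 28 with the 2 arrays exchanged. Keeping flagged spots or taking the median of spots moved neither count by over 1.5 times. The median of all measured probes was -0.06, 0.07 with median scaling and -0.11 with normexp. Of 36 named genes past 2-fold, 16 fell under it with normexp and 19 in the value table, at median levels of -5.35 and -5.11, against -1.75 and -1.55 for those that stayed past it, and all 36 kept their sign under these 6 settings, the value table columns being taken by their match to the arrays. Of 117 named genes measured on both arrays, 22 shrank by over 1.5 times with normexp and 40 in the value table. AN2576 ranged from 0.99 to 2.62, has1 from 1.06 to 1.30 and rodA from -1.55 to -1.30. Of 25 list medians, 10 were above 0, and 15 with median scaling; the antioxidant, glycolysis, proteasome and zinc lists changed sign there, and tyrosine breakdown, at 0.08, was -0.27 with normexp. The correlation with the reference pair lay between 0.11 and 0.18. The alternatives for one-sided detection and for that correlation were chosen after seeing the data. The cause of these shifts was not tested. No paired analysis was possible because each group has 1 array, and no array could be left out. Signal over background limits the lower side, where 59 of the 111 probes lay in the dimmest of 5 bins.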

Other observations

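Membrane and wall synthesis genes were near the median of all probes. Of 16 ergosterol genes 9 were above 0, with a median of 0.06; erg4 (AN10648), of the last step, stood at -2.27 untreated and -1.52 under CdCl2 (0.75 ± 0.04), erg6 (AN7146) at 0.50, erg2 (AN0451) at 0.39 and erg27 (AN1147) at -0.52. The 7 chitin synthase genes lay between -0.22 and 0.37, with chsA (AN4566) at 0.37 and chsB (AN7032) at 0.34. Of the tyrosine breakdown genes, fahA (AN1896) was at 0.41 and hmgX (AN1898) at -0.14, both dim, while hmgX stood at 1.96 on the reference label. The glycolysis genes pgkA (AN1246) and aspf22 (AN5746), the enolase gene, were at -0.09 and -0.10. orlA (AN3441), of trehalose synthesis, was at -0.24.

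Of 6500 adjacent pairs of measured genes in the order of the reference table, 3 had both members past 2-fold, each in 1 direction: AN8340 and AN8341 higher, AN10573 and ivoA lower, and aspE and AN4807 lower. These pairs were named after their values were seen.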
